A study of Mus musculus with 4 samples.

Results

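The transcription factors that drive or accompany fat cell formation were followed in adult mouse cardiac mesenchymal progenitors (CMPs) that had received the reprogramming factors OCT4, SOX2, KLF4 and c-MYC (OSKM). The set held 10 genes, Pparg, Cebpa, Cebpb, Cebpd, Srebf1, Mlxipl, Ebf1, Ebf2, Zfp423 and Zfp467. A probe belonged to the set when the gene name in the array files, or an older synonym of it, was one of these symbols. This gave 16 probes of 55681 on the array, and 10 genes of the 16658 that were measured. All 10 genes were well above background on all 4 arrays, so none was lost to the filter on dim probes.

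CMPs are Sca-1+ cells grown from the hearts of adult wild-type C57BL/6 mice. The control array held untreated CMPs at day 0, kept in growth medium with serum and basic fibroblast growth factor. The other arrays held CMPs transduced with Sendai virus carrying OSKM (OSKM-CMPs) at day 4, day 6 and day 8, which were moved to a reprogramming medium the day after infection. The series held no untreated array at day 4, 6 or 8. The virus, the change of medium and the days in culture thus came together, and their effects cannot be told apart. How many hearts or cultures stood behind an array was not given in the sources used here. There was 1 array per condition, so no p-value was computed, and the 3 comparisons with the control all share its array.

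Pparg encodes the nuclear receptor PPARγ, which is required for fat cell formation and switches on genes of lipid storage. In the textbook order, C/EBPβ and C/EBPδ come first after a hormonal stimulus, and PPARγ and C/EBPα follow and sustain each other. SREBP-1 (Srebf1) and ChREBP (Mlxipl) turn on fatty acid synthesis in response to insulin and glucose. EBF1, EBF2, ZFP423 and ZFP467 act in or before committed preadipocytes.

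The stretches upstream of the gene starts are shown first, for every RefSeq start of the 4 genes with the largest mean rise by day 8 (Pparg, Zfp423, Cebpa and Mlxipl) and of Cebpb, which stayed within 2-fold. They were thus chosen with the values known. They come from RefSeq (GRCm38.p6) and run 250 bases up to the base before the annotated start, 5′ to 3′ on the strand of the gene. Windows were found for 8 of the 10 genes, 15 windows in all; Cebpd and Ebf2 had none. Capitals mark CACCC (or GGGTG, its reverse), CACGTG, and TTGCNNAA (or TTNNGCAA).
Pparg start 1, chr6:115360894-115361143 (+): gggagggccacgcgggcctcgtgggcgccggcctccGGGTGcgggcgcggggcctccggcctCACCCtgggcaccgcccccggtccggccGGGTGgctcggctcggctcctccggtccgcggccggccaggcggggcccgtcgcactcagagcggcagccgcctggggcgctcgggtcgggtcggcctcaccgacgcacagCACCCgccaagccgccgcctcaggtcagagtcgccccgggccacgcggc
Pparg start 2, chr6:115362099-115362348 (+): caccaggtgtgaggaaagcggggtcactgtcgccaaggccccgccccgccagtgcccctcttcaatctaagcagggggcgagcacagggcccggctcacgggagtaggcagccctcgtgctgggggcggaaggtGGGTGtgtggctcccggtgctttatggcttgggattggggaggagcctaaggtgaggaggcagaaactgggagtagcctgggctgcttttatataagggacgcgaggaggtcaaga
Pparg start 3, chr6:115421816-115422065 (+): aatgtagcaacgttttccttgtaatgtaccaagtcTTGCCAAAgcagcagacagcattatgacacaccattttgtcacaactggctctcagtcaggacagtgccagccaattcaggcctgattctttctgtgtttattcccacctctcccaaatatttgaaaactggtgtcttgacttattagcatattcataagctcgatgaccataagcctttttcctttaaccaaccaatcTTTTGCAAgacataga
Cebpa, chr7:35119043-35119292 (+): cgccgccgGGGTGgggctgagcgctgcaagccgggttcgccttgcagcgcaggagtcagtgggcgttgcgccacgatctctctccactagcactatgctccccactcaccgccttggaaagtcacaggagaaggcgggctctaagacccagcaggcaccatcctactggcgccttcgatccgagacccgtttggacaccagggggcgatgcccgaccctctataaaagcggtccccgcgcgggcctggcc
Cebpb, chr2:167688665-167688914 (+): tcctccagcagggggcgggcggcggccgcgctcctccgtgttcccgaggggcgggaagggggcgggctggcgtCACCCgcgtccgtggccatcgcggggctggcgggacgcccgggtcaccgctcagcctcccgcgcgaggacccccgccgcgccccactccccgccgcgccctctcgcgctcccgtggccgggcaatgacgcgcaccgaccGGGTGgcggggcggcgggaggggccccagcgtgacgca
Mlxipl start 1, chr5:135089640-135089889 (+): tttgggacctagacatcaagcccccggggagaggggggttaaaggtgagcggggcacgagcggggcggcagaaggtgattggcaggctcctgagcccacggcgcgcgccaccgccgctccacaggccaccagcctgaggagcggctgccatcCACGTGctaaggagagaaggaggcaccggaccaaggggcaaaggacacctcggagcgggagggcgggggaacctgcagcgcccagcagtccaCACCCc
Mlxipl start 2, chr5:135106641-135106890 (+): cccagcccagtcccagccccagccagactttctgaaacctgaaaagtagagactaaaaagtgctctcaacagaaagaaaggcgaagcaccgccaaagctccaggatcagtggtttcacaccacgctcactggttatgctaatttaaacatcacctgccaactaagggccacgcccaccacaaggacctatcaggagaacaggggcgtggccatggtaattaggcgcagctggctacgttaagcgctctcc
Zfp423 start 1, chr8:87959596-87959845 (-): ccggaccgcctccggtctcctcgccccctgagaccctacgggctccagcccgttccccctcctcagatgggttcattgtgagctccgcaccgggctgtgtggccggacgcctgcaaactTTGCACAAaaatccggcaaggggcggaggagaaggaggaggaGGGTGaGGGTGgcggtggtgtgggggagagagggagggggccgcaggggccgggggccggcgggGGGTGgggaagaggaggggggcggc
Zfp423 start 2, chr8:87804440-87804689 (-): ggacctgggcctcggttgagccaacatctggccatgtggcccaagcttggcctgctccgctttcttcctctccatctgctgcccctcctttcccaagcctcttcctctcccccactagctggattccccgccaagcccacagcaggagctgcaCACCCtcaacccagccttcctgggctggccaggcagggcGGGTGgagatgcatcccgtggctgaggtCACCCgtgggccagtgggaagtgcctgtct
CACCC is the core of sites bound by KLF proteins, CACGTG is an E-box read by MYC, SREBP-1 and ChREBP, and TTGCNNAA is a C/EBP-type element. CACCC was present in 13 of the 15 windows, against 52.0% of all 32851 RefSeq windows of this length. The share of G and C ran from 40.0% in a window of Ebf1 to 82.4% at the first start of Pparg, against a median of 52.4% over all windows. CACGTG was found only in the first window of Mlxipl, and 6.02% of all windows held it. TTGCNNAA stood in 2 windows, those of the third start of Pparg and of the first start of Zfp423, against 9.56% of all windows. These matches describe letters and not bound sites, and the marked patterns did not overlap each other in the windows shown. Each transcript start was not measured on its own. Pparg had 1 probe for its 3 starts, and the probes of Zfp423 and Mlxipl were not assigned to a start.

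Levels are given as the processed Cy3 signal of a probe, and on a log2 scale after subtraction of the 75th percentile of the array. Errors are 1 SD from the scanner software's error model, which covers the spot and not the cells. For a mean over probes, the error leaves out the spread between the probes. Of the 16 probes, 15 lay on 1 spot and that of Pparg on 10. The median SD of a gene's difference between arrays was 0.20 on the log2 scale. A difference of at least 2-fold counted as a change, and the share of all genes past the same limit is given beside the counts.

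By day 4, 3 of the 10 genes had risen and 1 had fallen. The risers were Pparg, Cebpa and Zfp423, and Cebpd fell. Over all measured genes, 12.1% were at least 2-fold higher and 9.57% at least 2-fold lower at day 4. At day 6 Srebf1 and Mlxipl joined the risers, which made 5 higher and 1 lower, against 13.0% and 11.5% of all genes. The day 6 count was 4 with normexp background correction, where Srebf1 stood just inside 2-fold, and 4 with the brightest probe of a gene, where Mlxipl did not pass. The counts at day 8 were again 5 and 1, with 14.4% and 11.6% of all genes past the limit. The median change of the 10 genes was 0.08, 0.90 and 1.25 on the log2 scale at days 4, 6 and 8, while that of all genes stayed between -0.04 and -0.01. The 4 values of 7 genes spanned at least 2-fold, as did those of 33.3% of all genes.

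**Figure D1:**
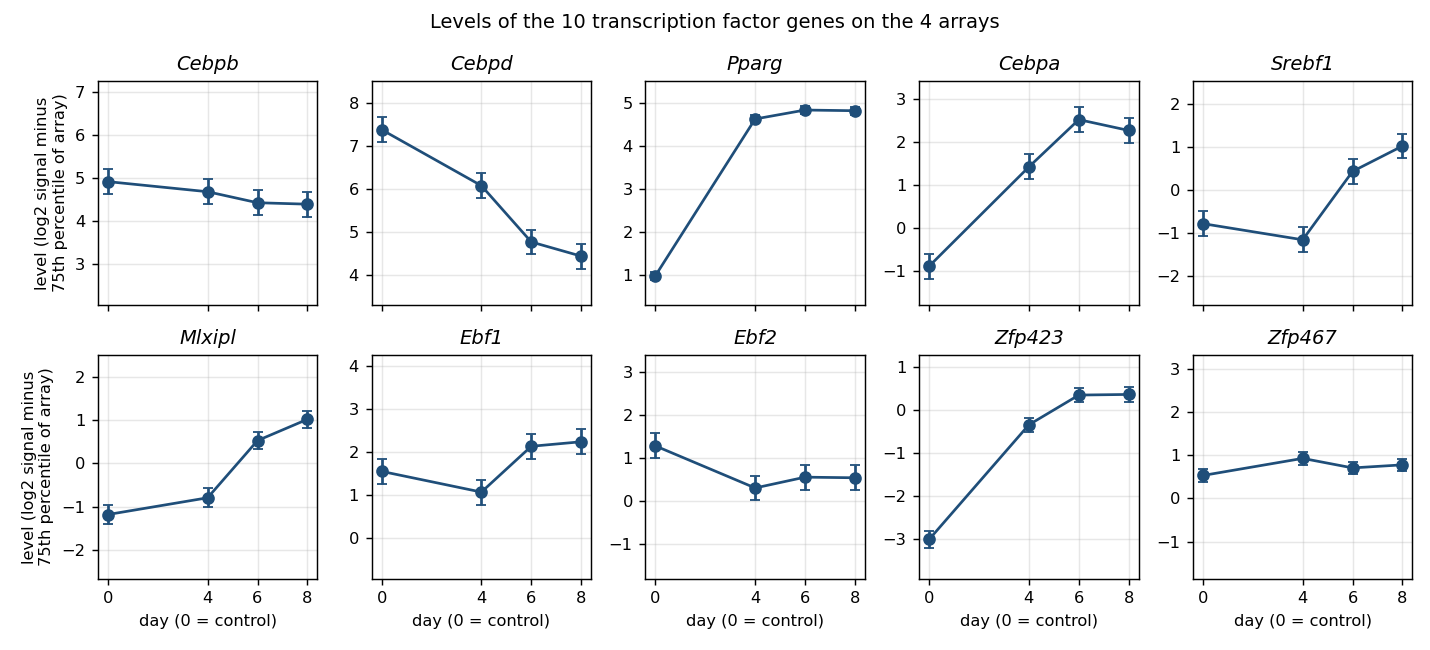
Levels of the 10 genes (log2 signal minus the 75th percentile of the array) by day, with control CMPs at day 0 and 1 array per day; bars are 2 SD of the error model and every panel spans the same height, so slopes but not heights compare between genes. Pparg, Cebpa and Zfp423 climbed by day 4, Srebf1 and Mlxipl between days 4 and 6, and Cebpd fell throughout.

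Transcripts of the C/EBP factors that act early were highest in the control. Cebpd, whose product is an early inducer of Pparg and Cebpa, gave a signal of 64498 in the control and of 26096, 11023 and 8869 on days 4, 6 and 8. The control was highest and the levels fell at each sampling, although day 6 and day 8 did not differ beyond 2 SD. Relative to the control, Cebpd was 2.47-fold lower at day 4 and 7.67-fold lower at day 8 (log2 change -2.94 ± 0.20). At day 8, 1.91% of all genes had a lower value than this.

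Cebpb encodes the other early factor, C/EBPβ. The control gave a signal of 11820, and the later arrays gave 10022, 8780 and 8672 in time order. The order again ran down from the control, but no neighbours in it differed beyond 2 SD. Day 6 (-0.49 ± 0.20) and day 8 did lie more than 2 SD below the control, and day 4 did not. The day 8 change of -0.52 ± 0.20 on the log2 scale stayed within 2-fold. These probes measure RNA, whereas C/EBPβ is also controlled by its translation and phosphorylation.

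Pparg showed the largest rise of the gene means on each of the 3 days, although 1 probe of Zfp423 rose further. From a signal of 769 in the control it went to 9596 on day 4, 11592 on day 6 and 11591 on day 8. The 3 later arrays lay close together and far above the control, and day 6 and day 8 could not be separated. Its 10 spots varied by an SD of no more than 0.06 on the log2 scale on any array. The gene was 12.5-fold higher at day 4 and 14.3-fold higher at day 8 (log2 change 3.84 ± 0.06), and 1.75% of all genes had a higher change at day 8. Nearly all of this was present at day 4, and the further difference from day 4 to day 8 was 0.19 ± 0.06 on the log2 scale.

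Cebpa encodes C/EBPα, the partner of PPARγ in mature fat cells and a factor of insulin sensitivity. Control CMPs gave a signal of 212, and OSKM-CMPs gave 1047, 2344 and 1991 in time order. The control was lowest and day 4 lay between it and the later arrays, which did not differ beyond 2 SD. It stood 4.95-fold above the control on day 4, 10.6-fold on day 6 and 8.91-fold on day 8. By day 4 it had reached 73.2% of its day 8 log2 difference, and its further rise to day 6 was 2.14-fold.

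The regulators of lipid synthesis came later. Srebf1 encodes SREBP-1, whose SREBP-1c form turns on fatty acid synthesis genes, and its signal went from 226 in the control to 174, 546 and 831 on the 3 later arrays. The control and day 4 did not differ beyond 2 SD, and days 6 and 8 stood above both. Srebf1 was 2.32-fold higher than the control at day 6 and 3.49-fold higher at day 8 (log2 change 1.80 ± 0.20). With normexp correction the log2 change at day 6 was 0.99 with the 75th percentile and 0.96 with quantile normalization. The step from day 4 to day 6 was 3.01-fold, the largest among the gene means, and 7.37% of all genes had a higher change at day 8.

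Mlxipl encodes ChREBP, a glucose-sensing factor that acts with its partner MLX on glycolytic and lipogenic genes. It was measured by 2 probes. From the control onward, the first gave signals of 715, 915, 1200 and 1375. The second gave 40.9, 54.6, 288 and 510 in the same order. They differed in size, with a log2 change at day 8 of 0.87 ± 0.20 for the first and 3.56 ± 0.23 for the second. No single step of the first probe passed 2 SD, whereas the second rose by 2.33 ± 0.22 from day 4 to day 6 and by 0.81 ± 0.20 from day 6 to day 8. Their mean was 4.64-fold above the control at day 8, while the brighter probe alone remained below 2-fold. All 4 levels of the mean differed from their neighbours beyond 2 SD, an error that leaves out the disagreement of the probes. From the control to day 4 neither probe alone passed 2 SD (0.36 ± 0.20 and 0.42 ± 0.24). Of the day 8 log2 difference of the mean, 17.6% was present at day 4.

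**Figure D2:**
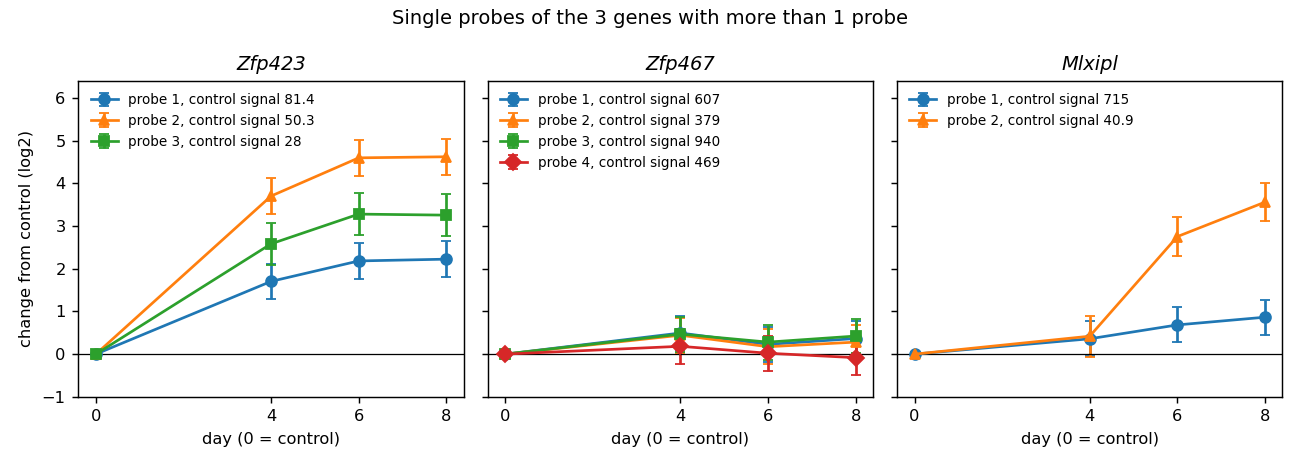
Change from the control (log2) by day for each probe of Zfp423, Zfp467 and Mlxipl, with bars of 2 SD of the error model; the legends give the control signal of each probe. The 2 probes of Mlxipl parted after day 4, the 3 of Zfp423 rose by different amounts, and those of Zfp467 stayed near 0.

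Of the EBF factors, Ebf1, whose product acts in preadipocytes upstream of Pparg and Cebpa, gave signals of 1136, 812, 1776 and 1931 from the control onward. Day 4 was lowest, below the control, and days 6 and 8 lay above it without differing from each other. No difference from the control reached 2-fold, but the rise from day 4 to day 6 was 2.09-fold. Ebf2, which marks brown and beige fat precursors, gave 946 in control CMPs against 479, 597 and 598 in OSKM-CMPs, in time order. Here the control was highest and the later arrays lay together below it. At day 4 Ebf2 was 1.97-fold lower (log2 change -0.98 ± 0.20), just inside the limit of 2-fold. With the median of the array as the scale it passed the limit on days 4 and 8.

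Zfp423 encodes a zinc finger protein that commits cells to the preadipocyte fate and that restrains the thermogenic programme in white fat. Its 3 probes gave 81.4, 50.3 and 28.0 in the control and 402, 1310 and 282 at day 8. All 3 probes were lowest in the control and had risen at day 4. Their log2 changes at day 8 ran from 2.23 to 4.63, and the mean of 3.37 ± 0.13 is 10.3-fold. By day 4 the mean had reached 79.1% of this, and days 6 and 8 did not differ beyond 2 SD. Zfp467, which enhances fat cell over bone cell formation in marrow stroma, had 4 probes whose day 8 changes lay between -0.08 and 0.42. Their mean was highest at day 4 (0.40 ± 0.10), and no neighbours in its order differed beyond 2 SD. Day 4 and day 8 (0.25 ± 0.10) did lie more than 2 SD above the control, and day 6 did not. The day 8 mean of 0.25 turned to -0.02 with the median of the array as the scale.

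**Figure D3:**
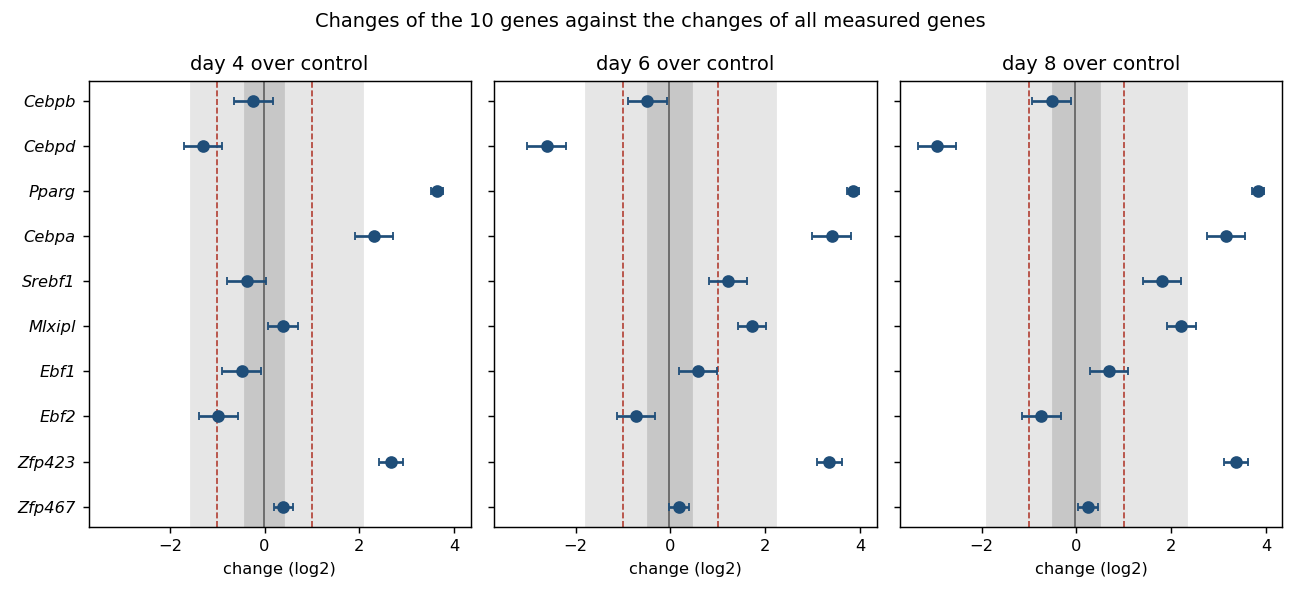
Log2 change of each gene from the control at days 4, 6 and 8 (points, with bars of 2 SD of the error model). The light band runs from the 5th to the 95th percentile of all 16658 genes and the dark band from the 25th to the 75th, and dashed lines mark 2-fold; at day 8 Pparg, Cebpa and Zfp423 lie right of the light band and Cebpd left of it.

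The steps between samplings separated the genes further. From day 4 to day 6, 4 of the 10 genes rose at least 2-fold (Cebpa, Ebf1, Srebf1 and Mlxipl) and Cebpd fell, against 2.83% and 2.64% of all genes. The rise of Mlxipl over this step was 0.90 with normexp correction and 0.33 with the brightest probe, which left 3 genes. From day 6 to day 8, none of the 10 passed 2-fold in either direction, against 2.44% higher and 1.01% lower over all genes. The largest differences over that last step were those of Srebf1 (0.59 ± 0.20) and Mlxipl (0.49 ± 0.14). Between day 4 and day 8, Ebf1, Srebf1 and Mlxipl were higher and Cebpd was lower, with 4.93% and 4.10% of all genes past the limit.

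**Figure D4:**
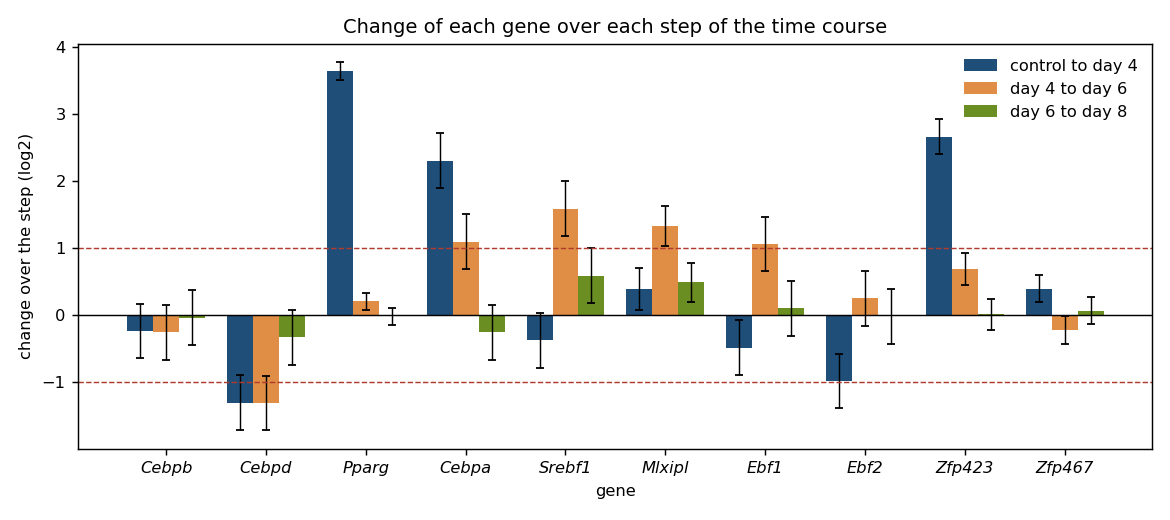
Log2 change of each gene over each of the 3 steps, with bars of 2 SD of the error model and dashed lines at 2-fold. Most of the rise of Pparg, Cebpa and Zfp423 lies in the first step, most of that of Srebf1 and Mlxipl in the step from day 4 to day 6, and no gene passes 2-fold in the last.

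Profiles were also set side by side by the distance between log2 levels centred over the 4 arrays, with a distance of 0 for the same course. Among the 45 pairs within the set, Cebpa and Zfp423 were closest (0.33), followed by Cebpb and Ebf2 (0.55) and by Srebf1 and Mlxipl (0.55). Cebpb and Zfp467 came next (0.61), although at day 8 Cebpb had changed by -0.52 and Zfp467 by 0.25. The distance was not scaled to the size of a change, so genes that changed little lay close whatever their course. Pparg lay nearest to Zfp423 (0.69). The levels of Zfp423 and Mlxipl in these pairs are means over probes that rose by different amounts. With 4 arrays, such likeness is a description of these samples.

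For each gene with a span of 2-fold or more, the 3 closest of the 13761 genes above background on all arrays were listed. Pparg was closest to Irx6 (distance 0.15), an Iroquois homeobox gene, to Pi16 (0.17) and to Eppk1 (0.20). Cebpa was closest to Fgf10 (0.21), a growth factor gene, then Clmn (0.27) and Sct (0.28). Cebpd ran with Ctla2a (0.20), Ctla2b (0.20) and Ptprn (0.22), and the Ctla2 pair are close copies of each other whose signals may not be separate.

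The genes nearest to Zfp423 were Gbp6 (0.13), Iigp1 (0.14) and Gm4951 (0.14), among them genes of interferon-inducible GTPases. Ebf1 ran with Sh2b2 (0.08), Dmxl1 (0.13) and Scp2 (0.15). For Srebf1 they were Reps2 (0.27), Nr1h3 (0.31), which encodes the liver X receptor LXRα, and Chpt1 (0.34). For Mlxipl they were Slit3 (0.12), Adgrf5 (0.18) and Gpam (0.18), the last encoding a glycerol-3-phosphate acyltransferase. Zfp423 and Mlxipl were matched by the mean of probes that disagreed in size, so these neighbours need not be those of any single probe.

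Genes that act with, above and below the 10 factors were taken from lists written for them. Their counts are read against the shares of all genes given above, 12.1%, 13.0% and 14.4% higher and 9.57%, 11.5% and 11.6% lower on days 4, 6 and 8. A gene with no probe above background in the control could pass the filter only through a later array, which favours rises in the counts. Among genes that PPARγ and C/EBPα are known to switch on, 15 of 30 measured genes were at least 2-fold higher on day 4, 24 on day 6 and 27 on day 8, or 50%, 80% and 90% of them. Their median log2 change was 1.01, 2.64 and 4.01, against -0.01, -0.04 and -0.03 for all genes. All probes were above background in the control for 21 of the 30 genes, and at day 8 for 29. Those short of this in the control were Cd36, Plin1, Cidec, Cidea, Adipoq, Pck1, Cfd, Lep and Retn, and all of them counted among the 27 at day 8. Rises from a dim control are uncertain in size. Lep was only 1.30-fold higher at day 8 against the lowest signal called well above background in the control. At day 8 the largest rises among those above background on both arrays were in Gpd1 (10.34), a glycerol phosphate dehydrogenase, and in Plin4 (7.45), a lipid droplet coat protein. Dgat2 (6.65), which makes triglyceride, and Fabp4 (5.78), a fatty acid carrier, followed. Gpd1 was itself dim in the control, with a signal of 25.1, where the lowest signal called well above background was 9.61. Adipoq, chosen after its values were seen, was not well above background in the control. With the lowest signal called well above background on that array in its place, it was 2358-fold higher at day 8.

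Of 22 measured genes that SREBP-1 and ChREBP are known to control, 3 were at least 2-fold higher on day 4, 6 on day 6 and 10 on day 8. The day 4 share of 13.6% was near that of all genes, and the day 8 share was 45.5%. Lower were 2 of them on day 4 and 4 on each of days 6 and 8, and the median at day 8 was 0.73. All probes were above background in the control for 19 of the 22 genes, and at day 8 for all 22. Scd1 (2.92 at day 8) and Fasn (2.29), the desaturase and the synthase of fatty acids, rose. So did Txnip (2.18), a glucose-responsive target of ChREBP, and Gpam (2.11). Fads2 (-2.45), a desaturase of polyunsaturated fatty acids, and Mid1ip1 (-2.15) fell.

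Of 8 measured partners and inhibitors of the C/EBP proteins, 5 were at least 2-fold lower on days 4 and 6 and 3 on day 8 (62.5%, 62.5% and 37.5%), and the median change at day 4 was -1.29. The lower count at day 8 turned on Trib1 (-0.998) and Atf5 (-0.999), which then lay just inside the limit. None was higher at day 4 and 1 was higher at day 8. Trib2, a pseudokinase that removes C/EBPα, fell by 2.18 on the log2 scale at day 8, and Atf4, a dimer partner, by 1.35. Ddit3, which encodes the inhibitory partner CHOP, rose by 1.21.

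Among partners of PPARγ, 3 of 18 genes were higher at day 8, a share near that of all genes, none was lower and the median was 0.43. The largest rise among those above background on both arrays was in Prdm16 (3.86), the brown fat coregulator. Prdm16 was dim in the control, with a signal of 20.1. In the machinery of SREBP-1 and ChREBP, 2 of 10 genes were higher at day 8, 20% against 14.4% of all genes, and none lower. These were Insig1 (1.49), which holds SREBP in the endoplasmic reticulum, and Nr1h3 (1.39), whose product activates Srebf1. Of 8 other EBF and zinc finger regulators, 2 were higher and 1 lower, and with so few genes these shares, 25% and 12.5%, say little beside those of all genes. Prdm16 was again among them, beside Zbtb16 (2.14) and Zfp36 (-1.59), which destabilises RNAs. Zbtb16 too was dim in the control, with a signal of 27.5.

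Of upstream factors listed as favouring fat formation, 5 of 21 genes were higher and 4 lower at day 8, with a median of 0.07. These shares are 23.8% and 19.0%, against 14.4% and 11.6% of all genes. The counts include genes that do not simply favour it, among them Foxo1 (1.04) and Myc (-3.08). Klf15 (2.39), an activator of Pparg, Bmp2 (1.95) and Stat5a (1.31) were higher. Fos (-3.83), which is induced at the start of hormonal adipogenesis, and Bmp4 (-3.24) were lower. Of 23 measured inhibitors, 3 were higher, a share of 13.0% that is near that of all genes, and 5 (21.7%) were lower. Dlk1 (6.59), the preadipocyte factor that blocks differentiation, rose at day 4 and stayed high, and Twist2 (1.17) was higher too. Hes1 (-2.55), a Notch target, and Klf2 (-2.19), a repressor of Pparg, were lower.

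**Figure D5:**
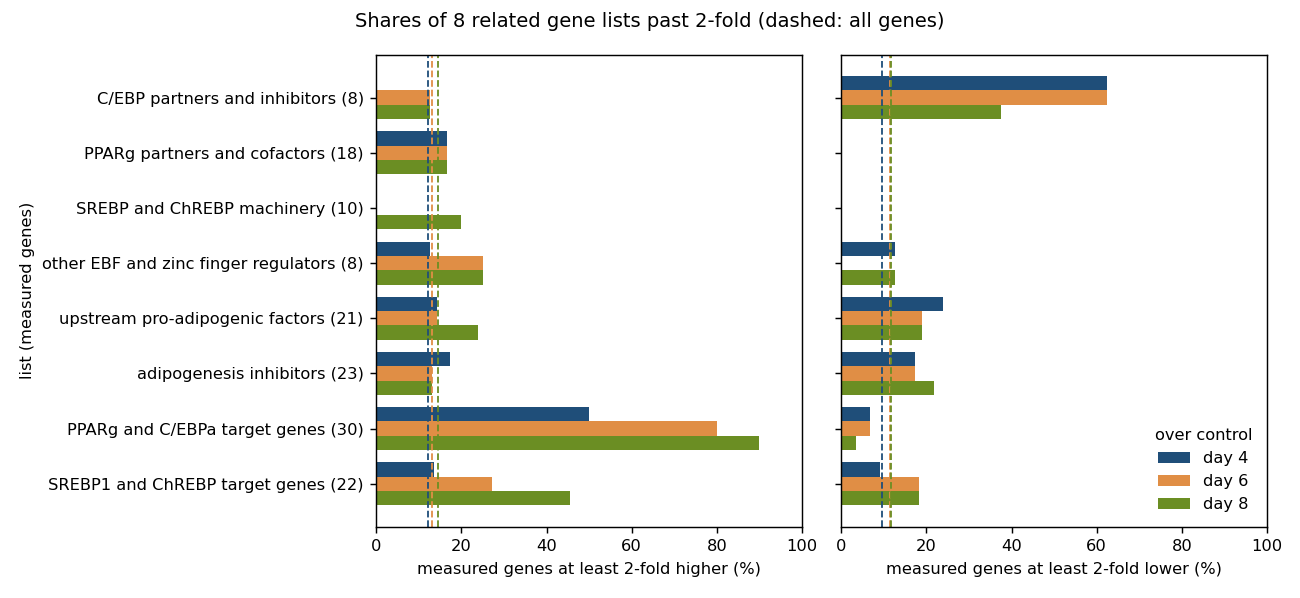
Percentage of measured genes in each of 8 lists that were at least 2-fold higher (left) or lower (right) than the control at days 4, 6 and 8, with the number measured in brackets and dashed lines at the percentage of all genes. The targets of PPARγ and C/EBPα stand far right of the dashed lines among higher genes, and the C/EBP partners among lower genes. Genes not above background in the control are included.

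The cells on the arrays were checked against their label. All 12 mesenchymal progenitor markers were above background on every array, and at day 8, 1 was at least 2-fold higher and 3 lower. The log2 changes were 2.69 for Ly6a (Sca-1), -1.78 for Thy1 and -1.35 for Itgb1. Summed signals of endothelial markers were 765 in the control and 466 at day 8, and 4 of the 7 were at least 2-fold lower on all 3 days. Those of leukocyte markers were 465 and 442, with 1 of 7 higher and 1 lower at day 8. Smooth muscle markers summed to 233969 in the control and 10811 at day 8, with 4 of 5 at least 2-fold lower on all 3 days. Of the 6 measured cardiomyocyte markers, 2 were above background in the control, 6 at days 4 and 6 and 5 at day 8. On each day 3 were at least 2-fold higher, but they were not the same 3. Tnni3 and Myl7 counted on all 3 days, Ryr2 on days 4 and 6, and Myh6 at day 8 only. None of these genes was above background in the control and all stayed dim later, so their rises are uncertain in size. The summed signal of the 6 markers went from 4655 in the control to 1726 at day 8 with Tnnt2 (-1.60). The part of these markers in the changes of the 10 factors was not tested. In whole cultures such as these, more cells that express a gene and more RNA per cell cannot be told apart.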

How the data were processed

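Single-colour Agilent mouse arrays measured RNA of the control and of the 3 days of OSKM treatment, 1 array each. The deposited scanner files hold background-subtracted Cy3 intensity per spot, made by the authors with Feature Extraction (version 10.7.3.1 in the file headers, 9.5.3 in the labels). The authors' normalized table holds log2 values shifted per array in GeneSpring GX 11, and served as an alternative.

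Outlier spots (87 to 106 per array) and 3671 control spots were dropped. The log2 intensity was averaged per probe, and each array was scaled to its own 75th percentile. Between 56.6% and 59.6% of probes were well above background. A probe was kept if it was so on at least 1 array (35541 probes), and the kept probes of a gene were averaged. Probe names were updated through RefSeq (GRCm38.p6) and no probe coordinate is used.

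The number of arrays limits precision, and errors are within-array only. Genes were named by these rules: all 10 factors, up to 4 largest rises and 2 largest falls per list at day 8 (at least 2-fold, above background on both arrays), and the 3 nearest profiles. Adipoq, the transduced factors and a few list genes near the limit or background were named outside these rules. The factors and lists were chosen with earlier results of these data known. Python 3.11.15, numpy 2.4.6, pandas 2.3.3, R 4.3.3 and limma 3.58.1 were used.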

Additional observations from a re-analysis of the deposited data

How the results depend on the processing

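The processing was varied by normexp background correction (offset 50, with the 75th percentile or with quantile normalization), quantile normalization, scaling to the array median, the normalized values of the authors, other filters and a floor for dim probes, the brightest probe of a gene, accession matches and limits of 1.5-fold or 3-fold. Of 144 counts of the factors, 134 stayed within 1.5 times the reported count and 10 moved, as did 50 of 360 counts of the lists; 81 of 600 changes of single factors moved by more than their error. Some of these settings could not move a factor. All 10 factors were above background on all 4 arrays, so the other filters and the floor left them as they were. Accession matches added 0 probes. The normalized values of the authors were the same signals shifted per array. Under each of these settings all 60 changes of single factors stayed the same, so the moves all came from the other settings. No change of a factor past 2-fold turned its direction. With the array median, which shifts the median of all genes at day 8 by -0.30, Ebf2 joined Cebpd and 2 factors were lower at day 4 and at day 8; the change of Ebf2 at day 8 was then -1.01 and that of Zfp467 -0.02. The split of all calls at day 8 moved from 55.3% to 40.1% higher, and with normexp and the 75th percentile 1032 genes in place of 2395 were higher and 1221 in place of 1939 lower. At 1.5-fold, 2 factors were lower than the control on each of the 3 days, 1 was higher from day 6 to day 8 and 5 from day 4 to day 8. At 3-fold, 0 were lower at day 4, 1 was higher and 0 lower from day 4 to day 6. With the brightest probe alone, Mlxipl changed by 0.87 and Zfp423 by 4.63 at day 8; under normexp with quantile normalization Zfp423 changed by 2.36. Over all alternatives the day 8 change lay between 3.57 and 3.96 for Pparg, 2.78 and 3.15 for Cebpa, 1.52 and 1.80 for Srebf1, and -3.21 and -2.68 for Cebpd. No paired analysis was possible because there was a single array for each condition, and leaving out a replicate was not possible for the same reason.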

Other observations

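The mouse genes of the transduced factors were read beside the set. Mouse Myc fell by 3.08 on the log2 scale at day 8, and Klf4 had a change of -0.81. Probes of Pou5f1 and Sox2 were not well above background on any array. Whether these mouse probes also read the RNA carried by the virus was not tested. Of the pluripotent cell markers, 4 of 7 were measured, and 1 of them, Dppa5a, was at least 2-fold higher at day 8 (1.51). Its 1 probe was dim, with a signal of 13.4 in the control and 40.2 at day 8.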
